A study of Mus musculus with 8 samples.

Results

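Imprinted genes are expressed from only one of the parental copies, some of them in certain tissues only. Of these genes, 36 were followed here, 15 known as maternally and 21 as paternally expressed in the mouse. Members were taken by gene symbol, as every probe annotated to one of the listed genes, so probes were chosen by annotation. The list itself was selected on earlier results of these arrays, among them the genotype differences given below, so the adjusted p-values describe where each gene lay in a fit over all probes and are not independent evidence. The array carried 48 probes for 30 of the genes, of 25697 probes and 16593 named genes in all. H19, Meg3, Rian, Peg13, Snurf and Zrsr1 were not represented under these symbols and were not analysed here.

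The cells were primary vascular smooth muscle cells of the carotid artery of male C57bl6 mice. One group was PMCA4 wild type and the other PMCA4 knockout, PMCA4 being the plasma membrane calcium pump encoded by Atp2b4. Both groups were serum synchronised, stimulated with serum and PDGF-BB, a growth factor of platelets, stained with the DNA dye Hoechst and sorted for early G1. Total RNA of each sample went onto 1 Illumina bead array, with 4 arrays per genotype. The labels do not say how the gene was deleted, how long the cells were cultured or whether arrays came from separate mice, so p-values measure the spread between arrays, which may be technical.

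An imprint is DNA methylation laid down in one parental germ line at a control region, which then sets the active copy of a cluster of neighbouring genes. Many imprinted genes act on fetal growth: Igf2 is a growth factor, Igf2r removes it from the cell surface, Grb10 dampens insulin and IGF1 receptor signals, and Cdkn1c restrains the cell cycle. Several are abundant in embryonic mesenchyme and fall after birth. The probes measure the summed transcript of both copies, in an inbred strain, so maternally and paternally expressed are background classes here and allelic expression was not measured.

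Imprinting acts through CpG methylation at control regions, and whether a promoter window lies in one was not examined. Of the 8 members whose intensity differed at least 2-fold by the fit, promoter sequences are shown for 5, without Grb10, Ppp1r9a and Cdkn1c. They come from RefSeq on GRCm38.p6, run 5′ to 3′ from 250 bases before to 50 bases after a transcription start, and carry each CpG in capitals. Rasgrf1 had the largest rise of the members, Dlk1 and Dio3 moved in opposite directions within a single cluster, Igf2 fell, and Nnat rose. Of the 4 starts of Igf2, the one whose window holds the hexamer described next is shown.
Rasgrf1 (chr9:89909525-89909824, + strand): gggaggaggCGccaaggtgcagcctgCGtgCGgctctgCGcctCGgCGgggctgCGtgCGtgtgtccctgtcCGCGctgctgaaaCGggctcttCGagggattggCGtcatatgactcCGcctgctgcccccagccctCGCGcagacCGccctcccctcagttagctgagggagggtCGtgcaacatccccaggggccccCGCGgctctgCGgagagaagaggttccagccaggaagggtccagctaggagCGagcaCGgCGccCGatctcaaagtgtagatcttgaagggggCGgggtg
Dlk1 (chr12:109452573-109452872, + strand): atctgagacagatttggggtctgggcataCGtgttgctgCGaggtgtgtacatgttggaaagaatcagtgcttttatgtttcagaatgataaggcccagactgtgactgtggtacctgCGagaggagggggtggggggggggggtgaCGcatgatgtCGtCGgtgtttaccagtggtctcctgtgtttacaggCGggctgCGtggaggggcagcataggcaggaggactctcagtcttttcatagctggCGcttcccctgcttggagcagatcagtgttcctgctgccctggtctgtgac
Dio3 (chr12:110278980-110279279, + strand): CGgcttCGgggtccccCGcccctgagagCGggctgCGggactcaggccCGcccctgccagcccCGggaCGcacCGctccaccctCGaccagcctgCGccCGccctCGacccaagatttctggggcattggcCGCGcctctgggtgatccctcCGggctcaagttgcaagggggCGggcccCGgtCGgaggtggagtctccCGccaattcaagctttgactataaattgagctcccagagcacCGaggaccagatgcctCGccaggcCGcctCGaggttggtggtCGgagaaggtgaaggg
Igf2 (chr7:142661222-142661521, - strand): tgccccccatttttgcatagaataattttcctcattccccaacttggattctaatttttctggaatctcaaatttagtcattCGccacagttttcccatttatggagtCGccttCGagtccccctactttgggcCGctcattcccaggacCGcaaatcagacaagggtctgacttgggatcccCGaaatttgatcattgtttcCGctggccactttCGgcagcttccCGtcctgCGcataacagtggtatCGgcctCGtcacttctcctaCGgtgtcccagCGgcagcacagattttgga
Nnat (chr2:157559828-157560127, + strand): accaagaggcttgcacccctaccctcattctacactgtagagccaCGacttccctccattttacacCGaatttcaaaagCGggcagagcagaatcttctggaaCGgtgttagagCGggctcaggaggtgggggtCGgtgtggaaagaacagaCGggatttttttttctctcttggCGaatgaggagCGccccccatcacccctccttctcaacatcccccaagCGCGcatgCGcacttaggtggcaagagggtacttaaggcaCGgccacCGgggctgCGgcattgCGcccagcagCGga

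The Rasgrf1 window held 26 CpGs and the Dio3 window 25, against 9 in the Dlk1 window. RefSeq gave 45 such windows for 30 of the 36 members. Their median was 14 CpGs, between the median of 7 over all 32851 windows and that of 20 over the 8803 windows of genes tested on these arrays. TGCCGC, the hexamer that the imprint-maintaining zinc finger protein ZFP57 binds when methylated, was searched on both strands. It was found in 24.4% of the member windows, in 11.6% of all windows and in 18.6% of those of tested genes. Of the 25 windows of tested members, 4 held it, a smaller share than among those of tested genes. The 11 member windows that hold it count one shared window under both Snrpn and Snurf, and Mest windows that nearly coincide. The windows shown of Nnat and Igf2 hold it, as does 1 of the Grb10 windows, while those of Rasgrf1, Dlk1 and Dio3 do not. GGGGCCCC, a palindrome bound by the imprinted factor PLAGL1, was in 4 of the 45 member windows (8.89%), those of Rasgrf1, Ppp1r9a, Peg3 and Usp29, of which the last pair overlap, and in 1.08% of all windows and 1.22% of those of tested genes. Neither motif contains the other. A match describes letters only, and methylation was not measured.

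Atp2b4 was read first as a check of the labels. The single detected probe read 6.72, 6.90, 7.05 and 6.89 (normalised log2 intensity) on the wild-type arrays and 7.17, 6.99, 6.56 and 7.07 on those labelled knockout (limma adjusted p = 0.719). The groups overlapped, and the other 2 probes of the gene were below background on every array. Where the deletion lies relative to these probes is not given, so directions given here depend on how the arrays were labelled. Each array detected 11697 to 11987 probes, and having only 4 arrays a group limits how precisely any difference is known.

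Of the 30 imprinted genes on the array, 17 were tested, meaning that some probe was detected (p below 0.05) on 4 or more arrays. At the brightest tested probe of each gene, 8 were higher, 4 were lower and 5 did not pass an adjusted p of 0.05. Over all 8302 genes tested, 57.6% passed, 26.9% higher and 30.7% lower in the knockout-labelled arrays, as did 56.3% of the 12040 probes tested. The genotypes did not overlap for 12 of the 17 members, and for 53.5% of all genes. Only 11 of the 17 were detected on all 8 arrays, and of these 5 were higher, 1 was lower and 5 did not pass, where 57.7% of all genes so detected passed, 26.3% higher and 31.3% lower. The other 6 passed the filter through the 4 arrays of one genotype alone and so had to differ, 3 in each direction. Counts over tested members are therefore descriptions, from which nothing is read against these shares. The median difference was 0.22 on the log2 scale over the 17, against -0.02 over all genes tested, and the median size of the difference regardless of sign was 0.62 against 0.27. Among genes detected on all 8 arrays that median size was 0.36 over the 11 members and 0.26 over all, and 2 of the 11 differed at least 2-fold, where 8.41% of all such genes did.

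**Figure D1:**
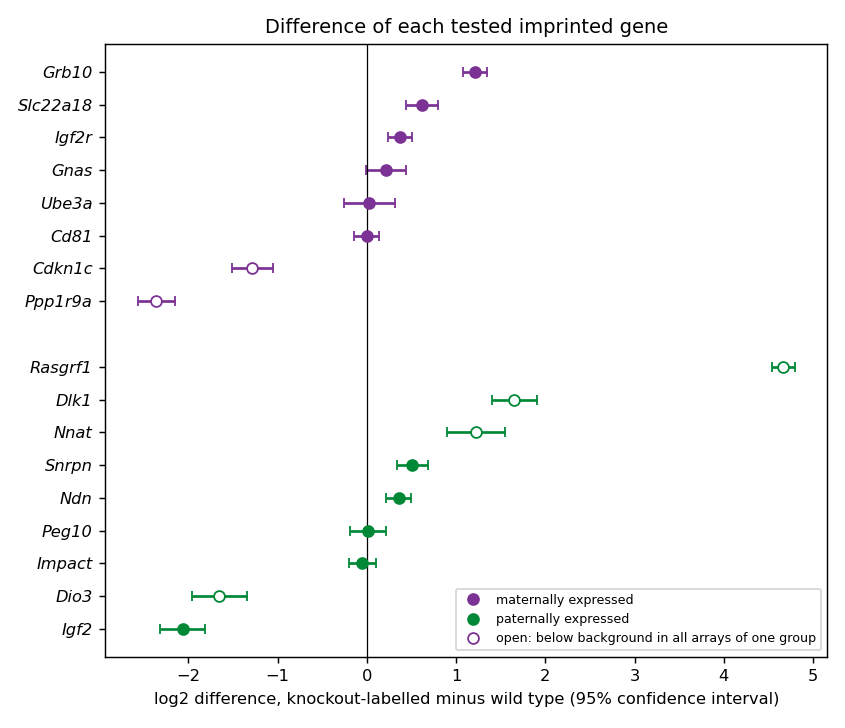
Log2 difference, knockout-labelled minus wild type, for each tested imprinted gene at its brightest tested probe, with the 95% confidence interval of the limma fit (n = 4 arrays per genotype). Open symbols mark genes below background on all 4 arrays of one genotype. Rasgrf1 lies at 4.67, far to the right of the other members, and Ppp1r9a and Igf2 lie lowest at -2.36 and -2.06.

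Igf2 fell, and Igf2r and Grb10 rose. Igf2, the growth factor, read 8.13, 8.30, 8.45 and 8.34 on the wild-type arrays (log2 intensity) and 6.01, 6.30, 6.13 and 6.51 on the knockout-labelled ones. Every wild-type array was above every knockout-labelled one, and the fall was 4.18-fold (log2 difference -2.06, standard error 0.11, limma adjusted p = 1.61e-07). The probe stayed detected on all 8 arrays, although the knockout-labelled values came close to the dimmest detected probes, which lay at 5.74 to 5.83.

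Igf2r, the receptor that carries IGF2 to lysosomes, gave 10.03, 9.94, 9.95 and 9.98 in wild type against 10.31, 10.26, 10.39 and 10.42. The groups were separate by a small step of 0.37 ± 0.06 on the log2 scale (standard error, limma adjusted p = 0.000509). Its second probe rose by 0.35 (limma adjusted p = 0.00131). Grb10, the adaptor that inhibits receptor signalling, went from 10.57, 10.60, 10.71 and 10.55 to 11.77, 11.82, 11.79 and 11.88. The 4 arrays of each genotype lay within narrow bands far apart, a 2.31-fold rise (limma adjusted p = 9.72e-08). Both sets of values rested on probes detected on all 8 arrays.

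Of 18 listed non-imprinted genes of the IGF axis, 15 were on the array and 11 were tested. Of these, 6 were higher, 4 were lower and 1 did not pass, where 57.6% of all genes tested passed. The 4 of largest change were Igfbp6 and Igfbp5, binding proteins that hold IGFs outside the cell, Igf2bp3, which binds Igf2 mRNA, and Igf1, the other ligand. Igfbp6 differed by 4.95 on the log2 scale, Igfbp5 rose 17.5-fold and Igf1 5.86-fold. Igf2bp3, undetected in wild type, was higher by a factor of at least 5.14. The 4 lower genes were Igf1r, Irs2, and the binding proteins Igfbp3 (3.65-fold lower) and Igfbp2 (1.94-fold lower). Another binding protein, Igfbp4, did not pass. Igf2 and Igf1 thus had differences of opposite sign, -2.06 and 2.55.

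Rasgrf1 encodes an exchange factor that activates Ras in response to calcium and calmodulin. Its brightest probe read 4.99, 4.96, 4.85 and 4.95 on the wild-type arrays (log2 intensity), never above background, and 9.59, 9.65, 9.57 and 9.61 on the knockout-labelled ones. The knockout-labelled values were tightly grouped, with an SD of 0.03 (n = 4). The rise was at least 13.9-fold, a bound that sets each wild-type array to the dimmest detected probe where that is higher (limma adjusted p = 2.02e-11). Each such bound holds for the normalisation used here, with an offset of 16. With an offset of 50 the fitted difference of Rasgrf1 was 3.65 on the log2 scale, a smaller rise than the bound.

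The other 3 Rasgrf1 probes gave bounds of at least 9.50-fold, 9.01-fold and 9.19-fold, so all 4 probes, which the annotation splits over 2 transcripts of the gene, moved alike. In deposited background-subtracted units, the 4 probes stayed between -16.5 and 12.9 in wild type and reached 458 to 800 in the knockout-labelled arrays. No wild-type array came near a knockout-labelled one at any of the probes. Imprinting of Rasgrf1, with expression from the paternal copy, is known chiefly from the brain.

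**Figure D2:**
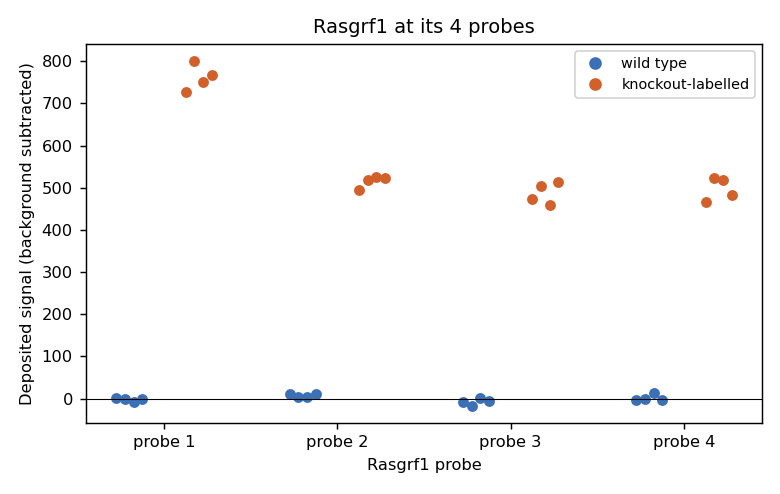
Deposited background-subtracted signal (linear, arbitrary units) of the 4 Rasgrf1 probes in the 4 wild-type and 4 knockout-labelled arrays, 1 point per array. Wild-type points lie around 0, from -16.5 to 12.9, and knockout-labelled points lie between 458 and 800 at every probe.

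Ppp1r9a, which encodes neurabin, an actin-binding partner of protein phosphatase 1, had the lowest fitted log2 difference of the members, -2.36. It gave 7.65, 7.63, 7.87 and 7.55 in wild type and 5.28, 5.38, 5.15 and 5.47 in the knockout-labelled arrays. It was detected on all 4 wild-type arrays and on 0 of the others, and was at least 3.70-fold lower (limma adjusted p = 1.44e-08). With an offset of 50 the fitted log2 difference was -1.69, a smaller fall than this bound. Peg10, a retrotransposon-derived gene of the same cluster needed for the placenta, had a log2 difference of 0.0095 with a 95% confidence interval from -0.19 to 0.21. All of its values, from 5.83 to 6.24, were close to the limit of detection. Sgce and Asb4, the remaining members of that cluster, were below background.

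Gnas, the stimulatory G protein alpha subunit that drives cyclic AMP production, differed by 0.22 at its brightest probe, with an interval from -0.0045 to 0.44 (limma adjusted p = 0.0875). Its second tested probe rose by 0.21 (limma adjusted p = 0.0497). The arrays of both genotypes overlapped at both probes, and the other 2 probes of the locus were below background. The 2 tested probes thus differed in call and hardly in size.

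The Dlk1-Dio3 cluster held 2 measured members, both paternally expressed, and they moved in opposite directions. Dlk1, a transmembrane protein related to Notch ligands that restrains adipocyte differentiation, gave 5.66, 5.44, 5.36 and 5.08 in wild type and 7.04, 6.92, 7.13 and 7.05 in the knockout-labelled arrays. It was below background on every wild-type array and detected on the other 4, at least 2.35-fold higher (limma adjusted p = 8.99e-07), while the fitted log2 difference with an offset of 50 was 1.12, below that bound. Dio3, the deiodinase that inactivates thyroid hormone, gave 6.93, 7.03, 7.01 and 6.39 in wild type and 5.06, 5.13, 5.26 and 5.31 in the knockout-labelled arrays. The pattern was the mirror image, with detection on the 4 wild-type arrays only, at least 2.07-fold lower (limma adjusted p = 3.75e-06). Wild-type replicate 4 was the lowest of its group for both genes.

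The Kcnq1ot1 cluster was also mixed. Cdkn1c, the cyclin-dependent kinase inhibitor p57, gave 6.64, 6.64, 6.73 and 6.51 in wild type against 5.61, 5.38, 5.29 and 5.11. No knockout-labelled array rose above background, and the bound on the fall was 1.79-fold (limma adjusted p = 3.01e-06). With an offset of 50 the fitted log2 difference was -0.83, slightly short of the bound. Slc22a18, an organic cation transporter, went the other way, from 8.03, 7.92, 7.85 and 7.79 to 8.52, 8.52, 8.36 and 8.65. Its groups were separate, at 1.53-fold higher (limma adjusted p = 9.99e-05), while its second probe was below background on every array. Cd81, a tetraspanin of the cell surface, had a log2 difference of -0.0024 with an interval from -0.14 to 0.14, and its arrays overlapped. Phlda2 and Ascl2, which act in the placenta, were below background.

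In the Snrpn cluster, the paternal copy of whose human counterpart is lost in Prader-Willi syndrome, both measured paternally expressed genes rose. Snrpn, the spliceosomal protein SmN, gave 10.13, 10.23, 10.29 and 10.31 in wild type and 10.71, 10.88, 10.82 and 10.59 in the knockout-labelled arrays, a separate pair of ranges and a 1.42-fold rise (limma adjusted p = 0.000325). A second Snrpn probe, detected on 5 arrays, differed by 0.32 and did not pass (limma adjusted p = 0.213). Ndn, the growth-suppressing MAGE family protein necdin, went from 13.08, 12.96, 12.98 and 13.02 to 13.33, 13.45, 13.41 and 13.28. The ranges were again apart, by 1.28-fold (limma adjusted p = 0.000796). Ube3a, the maternally expressed ubiquitin ligase of this cluster, had differences of 0.03 and -0.10 at its tested probes, neither of which passed. Magel2, Mkrn3 and Peg12 were below background.

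Nnat, a small membrane protein of the endoplasmic reticulum, gave 5.18, 4.77, 5.14 and 4.87 in wild type and 6.33, 6.53, 6.16 and 5.85 in the knockout-labelled arrays. It was detected only in the latter, at least 1.33-fold higher at one probe (limma adjusted p = 5.62e-05), with its second probe below background throughout. Impact, which restrains the amino acid sensor GCN2, had a difference of -0.05 with an interval from -0.20 to 0.10. Its arrays overlapped.

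**Figure D3:**
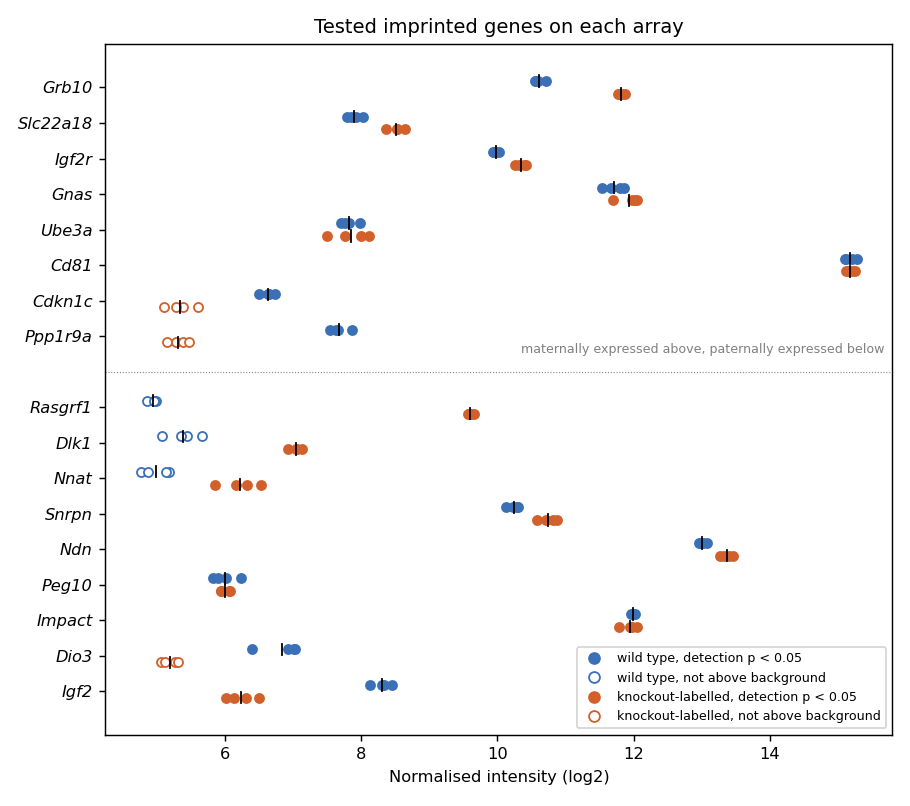
Normalised log2 intensity of the 17 tested imprinted genes on each of the 4 wild-type and 4 knockout-labelled arrays, with a bar at each group mean. Open symbols are arrays where the probe was not above background. Levels are comparable within a gene and not between genes. The genotypes do not overlap for 12 of the 17 genes, and for 53.5% of all genes tested. Of these 12, 6 passed the filter through the arrays of one genotype alone and so had to differ.

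The remaining 13 genes on the array were below background at all of their probes, 4 maternally and 9 paternally expressed. They were Phlda2, Ascl2, Zim1, Asb4, Peg3, Usp29, Sgce, Mest, Nap1l5, Peg12, Magel2, Mkrn3 and Plagl1. Across the 24 member probes detected on no array, signals ran from -30.8 to 17.6 deposited units and the lowest detection p was 0.150. Mest, a hydrolase-like protein, and Plagl1, a zinc finger factor that activates other imprinted genes, had 3 probes each, so their absence from detection did not rest on a single probe. The Peg3 cluster had no detected gene among its 3 members. A detection p of 0.05 or more limits what this array could resolve and does not show absence of the transcript.

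**Figure D4:**
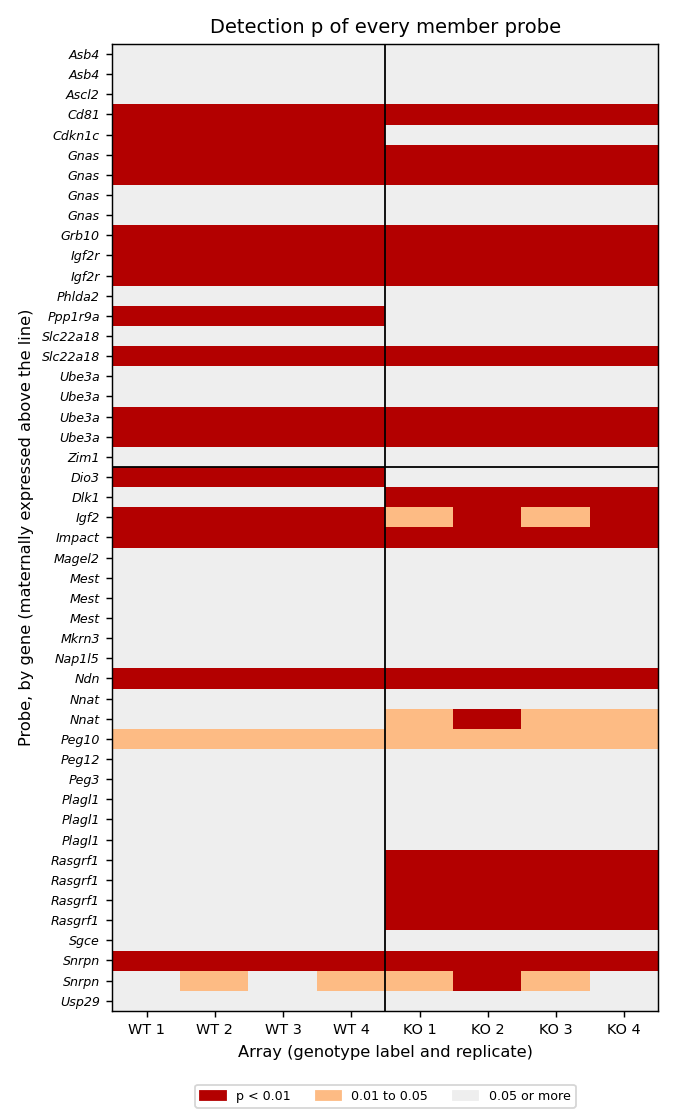
Detection p of each of the 48 member probes (rows, labelled by gene) on each array (columns), in 3 classes. Of the 48 probes, 14 were detected on all 8 arrays, 24 on none, 3 on the wild-type arrays alone and 6 on the knockout-labelled arrays alone.

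Of 8 tested maternally expressed genes, 3 were higher, 2 were lower and 3 did not pass, with a median log2 difference of 0.12. Of 9 tested paternally expressed genes, 5 were higher, 2 were lower and 2 did not pass, with a median of 0.36. Imprinting is restricted for Cd81, Ppp1r9a, Ube3a and Gnas among the maternally expressed and for Rasgrf1 among the paternally expressed. Over all genes tested, 57.6% passed, 26.9% higher and 30.7% lower. Both lower maternally expressed genes, Cdkn1c and Ppp1r9a, passed the filter through the wild-type arrays alone. Among members detected on all 8 arrays, 3 maternally expressed genes were higher, 0 were lower and 3 did not pass. For paternally expressed genes so detected, 2 were higher, 1 was lower and 2 did not pass. Of all genes so detected, 57.7% passed, 26.3% higher and 31.3% lower. The order of the medians turned among genes detected on all 8 arrays, where 6 maternally expressed genes had a median of 0.29 and 5 paternally expressed genes one of 0.0095. No class difference was tested, and nothing is read from the counts against the shares over all genes.

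**Figure D5:**
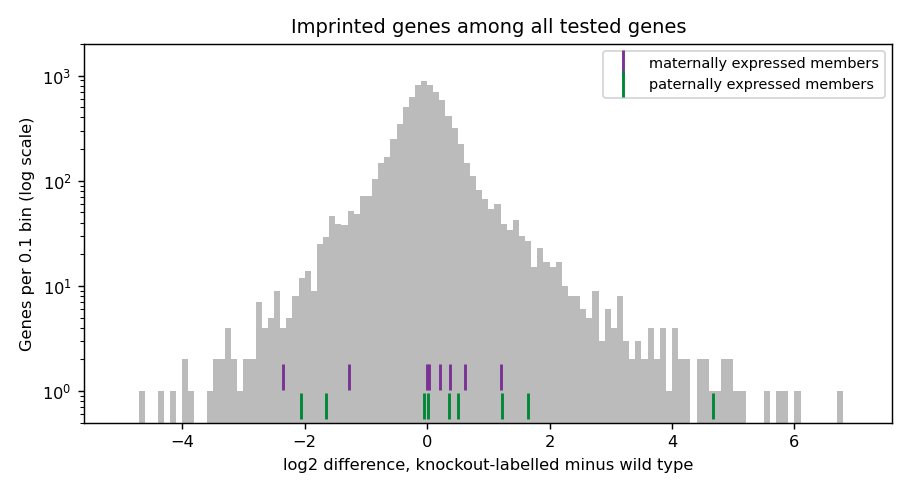
Distribution of the log2 difference, knockout-labelled minus wild type, over the 8302 tested genes (grey, in bins of 0.1, log scale), with ticks for the 8 maternally and 9 paternally expressed members. Rasgrf1 is the tick farthest right, at 4.67, and the maternally expressed tick farthest left, at -2.36, is Ppp1r9a, which was undetected on the knockout-labelled arrays.

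Of 41 further imprinted genes listed for comparison, 30 were on the array and 14 were tested. Where 57.6% of all genes tested passed, 5 of these 14 were higher, 2 were lower and 7 did not pass. Those of at least 2-fold were Dcn, a proteoglycan whose imprinting is known from the placenta, with a log2 difference of 6.77, and Atp10a, a phospholipid flippase, 2.10-fold higher. Of 26 listed factors that maintain imprints or silence chromatin, 15 were tested. Of these, 10 were lower, 1 was higher and 4 did not pass, where 30.7% of all genes tested were lower and 26.9% higher. Uhrf1, which brings the maintenance methyltransferase to replicated DNA, was 4.21-fold lower, the methyltransferase Dnmt1 was 2.65-fold lower and the Polycomb enzyme Ezh2 was 2.34-fold lower. Dnmt3l, a germ line cofactor for laying down imprints, was undetected in wild type and higher by a factor of at least 2.78.

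Other gene groups moved with the same contrast, and their part in the imprinted gene differences was not tested. In bulk RNA, fewer cells of a type and less RNA per cell cannot be told apart. Where 57.6% of all genes tested passed, 26.9% higher and 30.7% lower, 26 of 26 tested S phase and replication genes were lower. Their median log2 difference was -1.46. Of 15 tested markers of adventitial fibroblasts, 13 were higher, and the summed normalised intensity of the 17 markers on the array was 6999.8 to 7311 for wild type against 74255 to 77911. Dcn and Igfbp6, named above among the further imprinted and the IGF axis genes, are counted again among these markers. Of 9 tested smooth muscle markers, 8 were higher and 1 was lower, with sums of 62214 to 69554 and of 111268 to 116483. The contractile markers Myh11 and Mylk were below background on all wild-type arrays and detected on all knockout-labelled ones. Cnn1 and Synpo2 were below background on all 8. The remaining tested smooth muscle markers were detected on all 8 arrays, with wild-type means from 5.92 for Lmod1 to 15.1 for Acta2 (log2 intensity).

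Markers of other cell types were mostly near background. The counts below stand beside 26.9% of all genes tested higher and 30.7% lower. Of 10 endothelial markers on the array, 6 were detected on no array, Pecam1, Cdh5, Kdr, Tek, Tie1 and Vwf among them, and the sums were 656 to 729 and 661 to 694. Of the 3 tested, Flt1 was higher and Plvap and Esam were lower. Of 12 leukocyte markers, 9 were detected on none, Ptprc among them, with sums of 596 to 679 and of 573 to 607. Of the 3 tested, Lyz2 and Cd3e, both undetected in wild type, were higher and Cd14 was lower. The Schwann cell and neuron list had 2 tested members, both higher (570 to 691 against 1218 to 1293), with Nefl, Nefm, S100b, Stmn2 and Tubb3 detected on no array. The skeletal muscle list had 3 higher of 4 tested (330 to 417 against 2643 to 2841), with Myod1, Ckm and Tnnt3 detected on no array. Its Acta1 alone was 33.2-fold higher by the fit, at a knockout-labelled mean of 11.09 (log2 intensity). The wild-type mean of Acta1 was 6.04 (SD 0.55), with detection on 3 of 4 arrays, so this fold rests on wild-type values near background. Tnnt1 of the same list was undetected in wild type. The chondrocyte and osteoblast list had 3 higher of 3 tested (618 to 771 against 903 to 1046), among them Bglap, undetected in wild type. Acan, Comp, Ibsp and Sp7 of that list were detected on no array. The adipocyte list had 1 lower of 2 tested (871 to 1086 against 530 to 606), with Adipoq, Plin1 and Fabp4 detected on none.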

How the data were processed

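One deposited table gives the unnormalised signal intensity of each probe on each array and, per the file headers, its detection p-value. Between 28.4% and 29.7% of the deposited intensities per array were below 0, so background had been subtracted. The second deposited table holds log2 values with one common median of 6.05, which are quantile normalized. On the tested probes they equal, to within 0.00122, the intensities shifted by the lowest value of their array, log2 transformed and quantile normalized. No other background correction enters that match. The second table served as an alternative. RNA was extracted and labelled with kits named in the labels' protocols. Scanner software and slide or scan batches: not given in the sources used here.

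Intensities were normalised in R 4.3.3 by the neqc function (limma 3.58.1, offset 16, quantile, log2). The 12040 probes detected (p below 0.05) on 4 or more arrays entered lmFit and eBayes with genotype as the only term. Benjamini-Hochberg adjustment ran over all of them, with calls at 0.05. A gene was read at its brightest tested probe. Symbols came from the platform annotation, updated by gene identifier to GRCm38.p6, for 23962 of 23978 probes with 1 symbol, and 1719 probes had none. The fit was tested on simulated data. All 36 members are accounted for, and each member past the threshold at its brightest tested probe is given array by array. From other lists, the genes named with values are those of at least 2-fold (imprinted) or up to 4 of largest change. Igfbp2, Igfbp3 and Acta2 are named with values besides these. Members and lists were chosen with earlier results of these data known. Same-numbered arrays of both genotypes deviated together with correlations from -0.0294 to 0.0871, and differently numbered ones from -0.0837 to 0.0883. No shared deviation by number was seen, which cannot tell whether arrays were paired in preparation. Figures were drawn with matplotlib 3.10.9.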

Additional observations from a re-analysis of the deposited data

Results flagged for a closer look

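One array stood apart from its group. The Dio3 log2 intensity of wild-type replicate 4 was 6.39, with the nearest of the other 3 wild-type arrays at 6.93, a gap that took up 0.847 of the whole range and was above the 95% limit of Dixon for 4 samples. Of the 34 groups of 4 arrays compared in this way, chance alone gives about 1 in 20. Without this array the Dio3 difference still passed, and over the 8 fits that leave out 1 array it ranged from -1.80 to -1.59.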

How the results depend on the processing

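All 12 called members kept their direction and their call in each alternative that could fit them, 17 to 19 per gene. Of these 12, 6 had passed the filter through the arrays of one genotype alone and had to differ, so their kept calls add no evidence. The alternatives all use the same arrays. With the replicate block, 8 members were higher, 4 were lower, and 6541 probes passed against 6777. With only probes detected on all 8 arrays, chosen after seeing the data, 5 members were higher and 1 was lower, and the medians of maternally and paternally expressed members were 0.29 and 0.0095, since 6 members leave the fit. Members of restricted imprinting were, among those tested, the maternally expressed Cd81, Ppp1r9a, Ube3a and Gnas and the paternally expressed Rasgrf1. Leaving them out gave medians of 0.49 and 0.18, which also turns their order. The paternal median was 0.28 under median scaling, and with no filter on dim probes, which adds genes below background, the paternal median was 0.0022 and the maternal one 0.0235, again in the turned order. There Peg3 counted as lower (-0.27) although it was detected on no array. Leaving out each array gave medians of 0.09 to 0.18 and of 0.33 to 0.38, with 8 or 9 members higher and 4 lower, and 6223 to 6677 probes. Differences near 0 changed sign: Cd81 with array weights (0.019) and, over the fits without 1 array, Cd81 (-0.026 to 0.028), Peg10 (-0.046 to 0.092), Ube3a (-0.064 to 0.14) and Impact (-0.089 to 0.0010). Gnas passed in 3 of 19 alternatives, under cyclic loess (adjusted p = 0.0393), with an intensity trend (adjusted p = 0.0311) and without knockout replicate 2 (adjusted p = 0.0177), and Cd81 passed in 1, with a difference of -0.20 under median scaling (adjusted p = 0.0445). The causes were not tested. Fitted changes of genes below background in one genotype moved with the background correction. With a normexp offset of 50 they were 3.65 for Rasgrf1, -1.69 for Ppp1r9a, 1.12 for Dlk1, -0.83 for Cdkn1c, -1.08 for Dio3 and 0.72 for Nnat, the first 4 of these 6 being smaller than the bounds given. Signal over background limits Peg10 and Nnat, whose values lie near the dimmest detected probes.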
